A study of Mus musculus with 56 samples.

Results

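The ribosome-bound RNA of microglia was compared with the unbound RNA of the same tissue in barrel cortex of mice at postnatal day 5. The comparison used 16 of the 56 libraries of the study, namely 8 bound libraries and the 8 unbound libraries from the same 8 pieces of cortex. They were chosen by genotype and fraction in the labels, not by measured values, and each bound library was paired with the unbound library that carries the same mouse number and side letter. The mice were Cx3cr1CreErt2/+(Litt) Eef1a1LSL.eGFPL10a/+. One Cx3cr1 allele was therefore replaced by a tamoxifen-inducible Cre recombinase and the other was intact. Cre removes a stop cassette in front of a ribosomal protein L10a fused to enhanced green fluorescent protein (EGFP), so that cells with an active Cx3cr1 locus at the time of tamoxifen carry tagged ribosomes. Every mouse received 50 µg tamoxifen once daily from day 1 to day 3. Right whiskers were cauterised on day 4 and tissue was taken 24 h later. The pieces came from 4 mice. By title, 14L, 15L, 17L and 17R were deprived of whisker input and 14R, 15R, 21L and 21R were controls. Both pieces of mouse 17 were thus deprived and both of mouse 21 were controls, so that condition and mouse can be separated only in mice 14 and 15. Mouse 15 was male and the others were female per the labels. Both conditions were used together for the comparison of fractions.

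Microglia are the resident macrophages of the brain. They derive from yolk sac progenitors, depend on signalling through the receptor Csf1r, and in the first postnatal days clear debris and dying cells, sense nucleotides and chemokines from neurons, and supply complement. In translating ribosome affinity purification, antibodies to the EGFP tag pull tagged ribosomes, with the messenger RNA on them, out of a tissue lysate. The RNA left behind is the unbound fraction, which the labels describe as whole tissue. A gene is called enriched when it was higher in bound than in unbound RNA. Bulk RNA from a pulldown does not tell a difference in the number of tagged cells from a difference in RNA per cell.

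The 16 libraries held 32.8 to 50.7 M counts over 45682 annotated genes, with no separation in depth between the fractions. Mitochondrially encoded genes took 2.01 to 2.64% of the counts of bound libraries and 21.9 to 30.6% of those of unbound libraries. Of 17933 genes with sufficient counts, 6101 (34.0%) were enriched and 6045 (33.7%) depleted at an adjusted p under 0.05 in edgeR with the piece as a block. A stricter test, against a change of 2-fold, called 901 genes enriched (5.02%) and 305 depleted (1.7%). The median enrichment over all genes tested was -0.01 on the log2 scale. Scaling by total counts in place of TMM moved that median to 0.19 and the split to 8373 enriched and 3767 depleted genes, so small changes are given below relative to all genes.

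The labelled cell type was first checked with its markers. C1qc, a chain of the complement protein C1q, lies on chromosome 4 (136889804 to 136893065, GRCm38). It ranged from 20.3 to 47.3 CPM, the read count scaled to library size, in the 8 bound libraries, with a median of 35.1, and from 2.31 to 4.29 CPM in the unbound libraries, with a median of 3.80. Its enrichment was 3.31 ± 0.08 (log2 ± SE, adjusted p = 2.26e-18). Csf1r, the receptor for the survival factors Csf1 and Il34, ranged from 22.0 to 41.1 CPM in bound RNA (median 33.2) and from 3.54 to 5.91 in unbound RNA (median 4.77), an enrichment of 2.81 ± 0.07. All bound values of both genes lay above all unbound values. P2ry12, the ADP receptor through which microglial processes find injured cells (chromosome 3, 59216272 to 59262871), had 9.77 to 23 CPM in bound RNA (median 17.8) and 1.81 to 4.01 in unbound RNA (median 2.81), an enrichment of 2.56 ± 0.10. Tmem119, a membrane protein specific to microglia in the brain (chromosome 5, 113793729 to 113800516), had 2.74 to 7.36 CPM in bound RNA (median 4.85) and 0.314 to 1.01 in unbound RNA (median 0.724), an enrichment of 2.77 ± 0.16. The bound and unbound libraries did not overlap for these genes either. Cx3cr1, the fractalkine receptor whose locus carries Cre, had 6.49 to 12.4 CPM in bound RNA (median 9.37) and 0.839 to 1.92 in unbound RNA (median 1.49), an enrichment of 2.66 ± 0.10 from the intact copy and any transcript left of the other. GFPgene, an entry for green fluorescent protein counted as a gene of its own, rose from a median of 0.802 to 7.13 CPM in bound RNA. Its enrichment was 3.11 ± 0.13, again without overlap. Whether its reads came from the tag transcript alone was not tested.

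**Figure D1:**
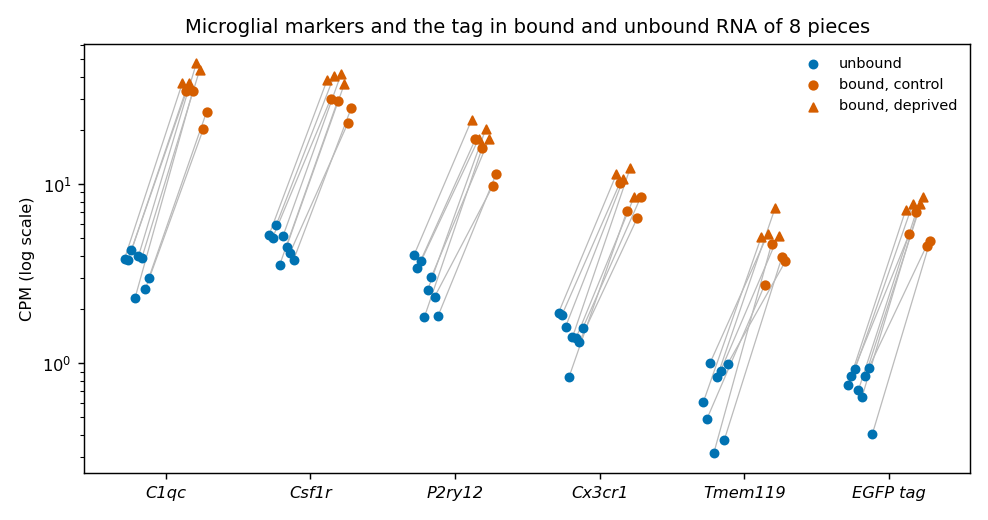
Level of 5 microglial genes and of GFPgene, marked EGFP tag, in each of the 8 pieces, in CPM on a log axis. Blue points are unbound libraries, orange circles bound libraries of control pieces, orange triangles bound libraries of deprived pieces, and grey lines join the libraries of a piece. Bound points lie above all unbound points for each gene, with C1qc at 20.3 to 47.3 CPM in bound and 2.31 to 4.29 CPM in unbound RNA.

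The wider list of genes that define microglia behaved in the same way. Of 24 genes, 23 were enriched, 22 of them beyond 2-fold, and 1 was depleted. For 21 of the 24 the 8 bound libraries lay above the 8 unbound ones, against 16% of all genes tested. The list had a median enrichment of 2.75, and 21 members lay between 2.0 and 3.5. At the top stood Aif1, the actin-bundling protein Iba1 used to stain microglia (3.39 ± 0.10), Ctss, a lysosomal cysteine protease (3.34 ± 0.07), and Tyrobp, the adaptor that signals for Trem2 (3.30 ± 0.09). Bin2, an adaptor of blood-lineage cells that shapes membranes, reached 3.20 ± 0.08, and Laptm5, a lysosomal membrane protein of blood-lineage cells, 2.73 ± 0.08. At the lower end were Sall1, a transcription factor that maintains microglial identity (1.55 ± 0.06), and Slc2a5, a fructose transporter (1.02). Sparc, a secreted matrix protein, was the exception. It had 38.7 to 60.9 CPM in bound RNA and 44.8 to 79.4 in unbound RNA, was lower in bound RNA in each of the 8 pieces (log2 -0.36 ± 0.05, adjusted p = 1.48e-06), and overlapped between fractions. The median enrichment of the list in single pieces ran from 2.36 in 14R to 3.06 in 17L. Without Sparc, the summed level of the list was 314 to 608 CPM in bound RNA (median 486) and 61.0 to 82.3 CPM in unbound RNA (median 75.3).

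Transcription factors and the Csf1 axis followed identity genes for the most part. Of 24 tested members 21 were enriched, 16 beyond 2-fold, and none was depleted, with a median of 1.60. Spi1, which encodes the myeloid master regulator PU.1, rose from a median of 1.06 CPM in unbound to 7.66 CPM in bound RNA (3.05 ± 0.14). Irf8, its partner in microglial development, rose from 1.71 to 10.8 CPM (2.74 ± 0.11), and Runx1 from 1.91 to 8.52 CPM (2.2 ± 0.11). The bound and unbound libraries of these 3 genes did not overlap. Fyb, an adaptor of haematopoietic cells, reached 2.74 ± 0.10. The ligand Csf1 was enriched by 0.63 ± 0.10 with overlapping libraries. The other ligand of Csf1r, Il34, which neurons make, stood at a median of 1.26 CPM in bound and 1.21 CPM in unbound RNA (0.04 ± 0.18, adjusted p = 0.860). Mef2c, a factor that neurons express strongly, likewise gave 0.04 ± 0.04 at a median of 2779 CPM in bound and 2719 CPM in unbound RNA.

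Each of the 26 surface sensors tested was enriched, 23 of them beyond 2-fold, with a median of 2.31. They are the receptors by which microglia read antibodies, nucleotides, lipids and microbial products. Fcgr1, a high-affinity receptor for immunoglobulin G, had a median of 6.56 CPM in bound and 0.830 CPM in unbound RNA (3.08 ± 0.12), and its signalling chain Fcer1g 42.9 and 5.62 CPM (3.02 ± 0.09). Trem2, a lipid receptor that pairs with Tyrobp, had a median of 6.37 CPM in bound and 0.804 CPM in unbound RNA (2.98 ± 0.12). Cd33, an inhibitory receptor for sialic acid, reached 2.47 ± 0.08. Among Toll-like receptors Tlr2 had 2.68 ± 0.18 and Tlr4 1.97 ± 0.14. None of these receptors overlapped between fractions. The smallest values were those of the ATP-gated channel P2rx4 and of Ly96, the partner of Tlr4, both at 0.64.

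Complement genes split by role. Of 19 tested, 14 were enriched, 10 of them beyond 2-fold, and 2 depleted, with a median of 1.66. The 3 chains of C1q rose together, C1qb by 3.23 ± 0.07, C1qc as given above and C1qa by 2.72 ± 0.20. The subunits of complement receptor 3, through which microglia take up opsonised synapses, also rose, Itgam by 2.79 ± 0.12 and Itgb2 by 2.9 ± 0.17. C3 was near the limit of the data, at a median of 1.72 CPM in bound and 0.467 CPM in unbound RNA (1.66 ± 0.18), and its libraries overlapped. The depleted members are inhibitors of complement, Cd46 (log2 -0.39 ± 0.12) and Serping1 (log2 -0.79 ± 0.16). Cfb and Cfd were below the filter on counts.

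Among genes for the uptake of dead cells, 18 of 23 were enriched and 4 depleted, with a median of 0.82. The members beyond 2-fold numbered 8. Rac2, a small GTPase of blood cells, led with 3.01 ± 0.09, followed by its activator Dock2 with 2.70 ± 0.12 and the scavenger receptor Stab1 with 2.54 ± 0.12. Lrp1, a receptor for apolipoprotein E that astrocytes share, rose from 69.0 to 82.8 CPM in unbound to 206 to 330 CPM in bound RNA (1.83 ± 0.08). It rose by 1.75 ± 0.15 in the astrocyte line described below. Phosphatidylserine receptors that other glia also make changed less, with Mertk at 0.88 ± 0.09 and Axl at 0.71 ± 0.09. The bridging protein Mfge8 (log2 -0.48 ± 0.07) and the Rac activator Elmo1 (log2 -0.42 ± 0.04) were depleted. In the astrocyte line 16 of these 23 genes were enriched, with a median of 0.54. In the direct test between the lines 8 were enriched more in the microglial line and 7 less. Lysosomal genes were enriched in 20 of 28 cases and depleted in 3, with a median of 0.92 (25 and 1 with scaling by total counts). Lyz2, the lysozyme of macrophages, rose by 2.76 ± 0.08, Cd68, a glycoprotein of macrophage lysosomes, by 2.32 ± 0.10, and Ctsd, an aspartic protease, by 2.00 ± 0.06. Grn, progranulin, rose from a median of 13.3 to 48.8 CPM (1.87 ± 0.10). Lamp1, which coats lysosomes of all cells, stood at 107 CPM in unbound and 104 CPM in bound RNA (adjusted p = 0.628), and Psap, the saposin precursor, was depleted (log2 -0.79 ± 0.06).

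Genes of activated and axon-tract-associated microglia, a state of the first postnatal week, were enriched in 18 of 22 cases and depleted in 2, with a median of 0.83. Spp1, which encodes osteopontin, ranged from 17.0 to 56.3 CPM in bound RNA (median 20.3) and from 2.18 to 10.0 in unbound RNA (median 3.93), an enrichment of 2.56 ± 0.09. Both pieces of mouse 14 were the highest, with 43.2 CPM in 14L and 56.3 CPM in 14R, and the other 6 bound libraries held 17.0 to 21.3 CPM. Gpnmb, a lysosome-associated glycoprotein, rose by 2.96 ± 0.15. Cst7, an inhibitor of cathepsins, rose by 3.03 ± 0.37 from a low level, a median of 1.01 CPM in bound and 0.0992 CPM in unbound RNA. Vim, a filament protein of many non-neuronal cells, rose by 2.52 ± 0.06, and by 2.40 ± 0.09 in the astrocyte line described below. Apoe, the lipid carrier of astrocytes and microglia, was enriched by 0.38 ± 0.06 and Igf1, a growth factor, by 0.17 ± 0.05. Lpl, lipoprotein lipase, did not pass the test (log2 -0.03 ± 0.04, adjusted p = 0.555). Pld3 (log2 -0.53 ± 0.06) and the fatty acid carrier Fabp5 (log2 -1.07 ± 0.05) were depleted.

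Cytokine, chemokine and receptor genes were enriched in 20 of 23 tested cases and depleted in 1, with a median of 1.89. Ccl12, a monocyte chemoattractant, had 9.55 to 28.8 CPM in bound RNA and 1.85 to 3.53 in unbound RNA (2.67 ± 0.10). The receptors Il10ra (2.59 ± 0.15) and Tgfbr2 (1.80 ± 0.09) rose as well, and Tgfbr2 carries the TGF-beta signal on which microglial identity depends. Ccl3 reached 2.53 ± 0.17 and Il1a 2.68 ± 0.16. Il1b stayed close to detection, at a median of 0.277 CPM in bound and 0.11 CPM in unbound RNA, with overlapping libraries (1.34 ± 0.35). Tnf, Il6, Il10, Il12b, Ccl4, Cxcl2 and Ccr6 were below the filter, with Tnf at 123 counts summed over the 8 bound libraries and 23 over the 8 unbound. Il18 was slightly lower in bound RNA (log2 -0.21 ± 0.09, adjusted p = 0.0392), a call that was lost with scaling by total counts, without the block and without each of the pieces 14L, 14R, 15L, 15R and 21L. Interferon-response genes were mixed, with 11 of 20 enriched, 2 depleted and a median of 0.33, and with 17 enriched and 1 depleted under scaling by total counts. Ifi27l2a rose by 2.41 ± 0.10 and Oasl1 by 2.04 ± 0.14, whereas Isg15 fell by 0.74 ± 0.11 on the log2 scale. Antigen-presentation genes were enriched in 11 of 17 cases and depleted in 1, with a median of 0.94. The class I genes B2m (1.41 ± 0.06) and H2-K1 (1.67 ± 0.08) and the immunoproteasome subunits Psmb8 (1.92 ± 0.11) and Psmb9 (1.99 ± 0.10) rose. In the astrocyte line 7 antigen-presentation genes were enriched, with a median of 0.69. H2-K1 had 1.03 ± 0.14 and B2m 0.09 ± 0.08 there. Of 16 tested for a difference between the lines, 4 were enriched more in the microglial line and 4 less. The class II gene H2-Aa was depleted (log2 -1.30 ± 0.37) at levels of at most 0.483 CPM in bound RNA.

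**Figure D2:**
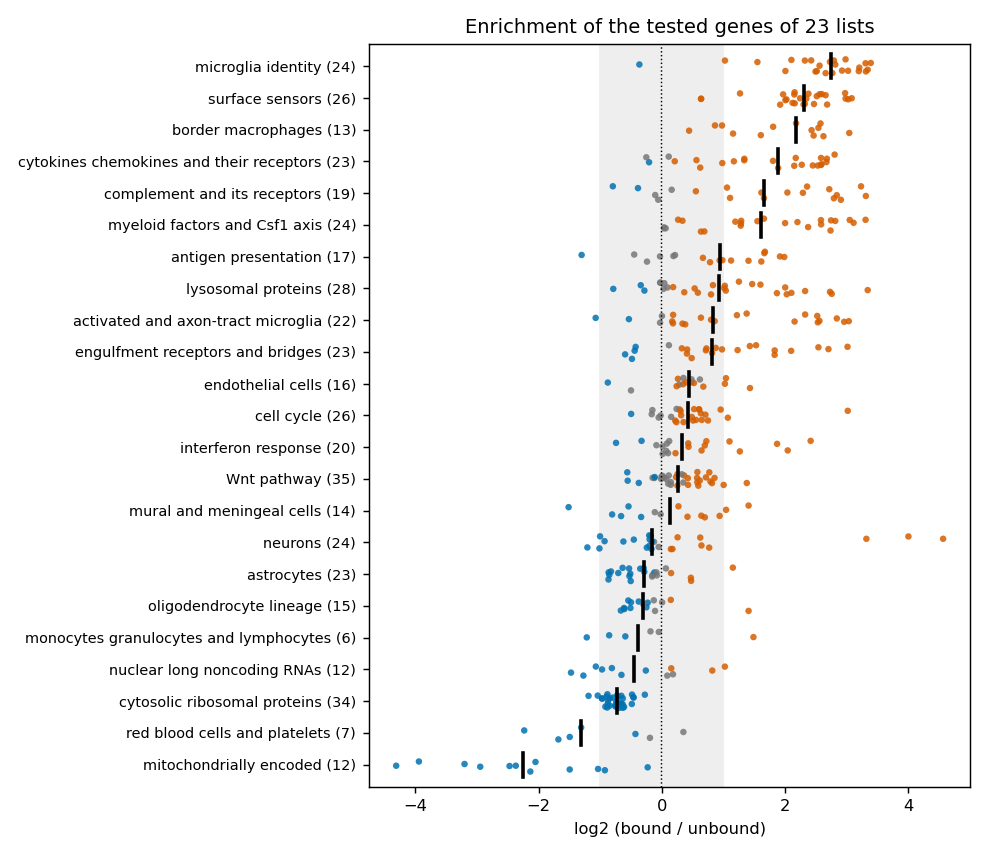
Enrichment of the tested members of 23 gene lists, as log2 of bound over unbound RNA. Each point is a gene, orange where enriched, blue where depleted and grey where the test did not pass, and thick bars mark list medians. Numbers of genes tested are in parentheses, the grey band spans a change of 2-fold in either direction, and the dotted line is the median of all genes. The microglia identity list has the highest median, 2.75, and the mitochondrially encoded list the lowest, -2.25.

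Genes used as markers of other cells with an active Cx3cr1 locus were also enriched in bound RNA. Macrophages at the borders of the brain, in the meninges and around vessels, express Cx3cr1 early in life. All 13 tested marker genes of these cells were enriched, 9 beyond 2-fold, with a median of 2.18. For 5 of the 13 the bound libraries all lay above the unbound ones, against 16% of all genes tested. The remaining members overlapped between fractions. Mrc1, the mannose receptor, ranged from 5.89 to 25.4 CPM in bound RNA (median 16.7) and from 0.655 to 5.74 in unbound RNA (2.18 ± 0.10). F13a1, a coagulation factor subunit, rose by 2.43 ± 0.11 and Lyve1, a hyaluronan receptor, by 1.81 ± 0.11. Piece 15R stood apart for these genes. It held 0.477 CPM of Lyve1 in bound RNA against 7.74 to 20 CPM in the other 7 pieces, 1.24 CPM of F13a1 against 6.95 to 16.8, and 0.119 CPM of Pf4 against 1.82 to 7.34. Collagen genes of meningeal fibroblasts were also lowest there, with Col1a1 at 0.691 CPM in bound RNA of 15R and 7.74 to 14.6 CPM in the other pieces. The microglial markers of 15R were not low, for instance C1qc at 33.2 CPM and Aif1 at 26.2 CPM in bound RNA. Summed over the border macrophage list, 15R had 43.9 CPM in bound RNA and the other pieces 75.6 to 135 CPM. How much of the enrichment of genes shared by border macrophages and microglia came from either cell was not tested.

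Of 20 marker genes of monocytes, granulocytes and lymphocytes only 6 passed the filter. Plac8 was enriched (1.49 ± 0.17) at a median of 1.61 CPM in bound RNA, and S100a8 (log2 -0.85 ± 0.32), S100a9 (log2 -1.22 ± 0.28) and Trbc2 (log2 -0.59 ± 0.08) were depleted. Ccr2, the defining receptor of classical monocytes, had 113 counts over all bound and 64 over all unbound libraries. Globin genes of red cells were depleted, Hbb-bs by a log2 value of -1.68 ± 0.08.

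Genes of the untagged cell types of the cortex were not at 0 in bound RNA. Their summed levels in bound libraries were 13410 to 19150 CPM for the 24 neuronal genes and 954 to 1161 CPM for the 23 astrocyte genes. Of the astrocyte list 14 genes were depleted and 4 enriched (median -0.30), against 8 and 6 (median -0.09) with scaling by total counts. The glutamate transporter Slc1a3 had 36.6 to 61.9 CPM in bound and 72.8 to 97.7 CPM in unbound RNA (log2 -0.86 ± 0.05). The water channel Aqp4 and the gap junction protein Gja1 also fell, with log2 values of -0.85 and -0.87. Gfap, the astrocyte filament protein, went the other way, with 49.1 to 104 CPM in bound and 21.0 to 47.1 CPM in unbound RNA (1.15 ± 0.05). The neuronal list was depleted in 13 and enriched in 9 of 24 genes with a median of -0.17, which turned to 6 depleted, 10 enriched and a median of 0.04 with scaling by total counts. Map2, a dendritic protein, fell by 1.21 ± 0.04 on the log2 scale. The neurofilament subunits rose, with Nefl from 154 to 197 CPM in unbound to 3459 to 6053 CPM in bound RNA (4.56 ± 0.08), Nefh by 4.00 ± 0.08 and Nefm by 3.32 ± 0.07. Of 15 oligodendrocyte-lineage genes 9 were depleted and 2 enriched (median -0.30), against 6 and 3 (median -0.10) with scaling by total counts. The transcription factor Sox10 had a log2 value of -0.67 ± 0.07 and the proteoglycan Cspg4, shared with pericytes, 1.41 ± 0.08. Endothelial genes had a median of 0.44 with 10 of 16 enriched, led by the clotting factor Vwf at 1.43 ± 0.12. With scaling by total counts 14 were enriched (median 0.64). Mural and meningeal genes had a median of 0.13 with 7 of 14 enriched and 5 depleted, the actin Acta2 of smooth muscle among the latter (log2 -1.51 ± 0.20).

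Cell-cycle genes were enriched in 19 of 26 cases and depleted in 1, with a median of 0.42. The exception in size was Cenpe, a motor protein of the kinetochore, at 3.02 ± 0.06, which reached 2.24 ± 0.07 in the astrocyte line too. Mki67, a protein of dividing cells, rose from a median of 62.5 to 120 CPM (0.95 ± 0.05), and by 1.05 ± 0.05 in the astrocyte line. Of 35 tested Wnt pathway genes 18 were enriched and 4 depleted, none beyond 2-fold, with a median of 0.26 (25 and 2 with scaling by total counts). In the astrocyte line described below 19 of the Wnt list were enriched, with a median of 0.43, and 19 of the cell-cycle list, with a median of 0.39. Beta-catenin, Ctnnb1, rose by 1.00 ± 0.04 (0.50 in the astrocyte line) and the ligand Wnt5a by 0.86 ± 0.06 (1.10 in the astrocyte line), whereas Porcn, which lipidates Wnt ligands, fell by 0.56 ± 0.08 and the secreted Dkk3 by 0.55 ± 0.06 on the log2 scale. RNAs kept in the nucleus were mostly depleted, 7 of 12 with 3 enriched, led by Malat1 (log2 -1.47 ± 0.09), Meg3 (log2 -1.27 ± 0.07) and Snhg11 (log2 -1.07 ± 0.05). Snhg14, a host of small nucleolar RNAs, was enriched (1.02 ± 0.07). All 12 tested mitochondrially encoded RNAs were depleted, with mt-Rnr1 at a log2 value of -4.31 ± 0.08 and mt-Co1 at -2.95 ± 0.05. All 34 genes for cytosolic ribosomal proteins were depleted (median -0.73). For 31 of them all 8 bound libraries lay below all 8 unbound ones, against 14.0% of all genes tested. Rpl10 fell furthest, by 1.19 ± 0.05, and Rpl10a, the mouse gene for the protein that is tagged, by 1.04 ± 0.06 on the log2 scale.

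The largest enrichments in the data were not microglial markers. Aif1, the highest identity gene, was exceeded by 47 genes. The first 10 with a mean log2 CPM of at least 3 were Tnrc18, Bahcc1, Yeats2, Rai1, Bcor, Kdm6b, Gse1, Gli2, Ankrd26 and Nefl. Most of these encode chromatin or transcription regulators made in many cell types. Tnrc18 ranged from 22.5 to 28.2 CPM in unbound and from 2134 to 4366 CPM in bound RNA (6.78 ± 0.11). Bahcc1 ranged from 10.7 to 14.5 CPM in unbound and from 962 to 1651 CPM in bound RNA (6.54 ± 0.07), and Yeats2, a reader of histone acylation, reached 6.47 ± 0.06. The smallest of the 10, Nefl, was given above. No library of one fraction came near the range of the other for these genes.

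Enrichment was set beside that of a second pulldown. The study includes an astrocyte line, Aldh1l1::eGFPL10a, in which Aldh1l1, a gene of astrocytes, drives a tag of the same kind, with 10 bound and 10 unbound libraries of day 5 barrel cortex with the same cautery and no tamoxifen. Its labels name no animal, so it was fitted without a block. It stands in another count table, and line, table and tamoxifen cannot be told apart. In that line 541 of 16949 genes were enriched beyond 2-fold, and 260 of them were also among the 901, which is 48.1% of the first list and 28.9% of the second. Only 722 of the 901 were tested in the astrocyte line. Of the 260, 75 were enriched more and 52 less in the microglial line. Across the 16490 genes tested in both lines the enrichments correlated with r = 0.568. This is a description across genes, which are not independent replicates. Of the 47 genes above Aif1, 41 were tested in the astrocyte line and 40 were enriched beyond 2-fold there. Bahcc1 had 6.06 ± 0.12 in that line, Yeats2 6.96 ± 0.08, Tnrc18 5.07 ± 0.08 and Nefl 4.22 ± 0.10. The exception was Crybb1, a beta-crystallin gene that is a marker of young microglia, with 3.48 in the microglial line. The microglia identity list had a median of -0.53 in the astrocyte line, with 3 of its members enriched and 14 depleted there, and the astrocyte list had 1.10, with 21 of 23 enriched.

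The difference between the lines was tested directly. Of 19667 genes, 3336 (17.0%) were enriched more in the microglial than in the astrocyte line and 4933 (25.1%) less. In the identity list 21 of 24 were higher and 1 lower, in the sensor list 21 of 26 were higher and none lower, and in the astrocyte list none was higher and 22 of 23 were lower. The 10 genes with the largest difference that also passed the filters on level and enrichment were Ctss (4.30 ± 0.21), Ly86 (4.18 ± 0.22), Aif1 (3.96 ± 0.30), C1qc (3.84 ± 0.23), C1qb (3.63 ± 0.24), Spp1 (3.58 ± 0.43), Tyrobp (3.37 ± 0.24), Fcer1g (3.31 ± 0.22), Csf1r (3.28 ± 0.15) and Ighm (3.26 ± 0.24). Ly86 encodes a partner of the Toll-like receptor homologue Cd180. Ighm, the heavy chain of immunoglobulin M and best known from B cells, had 17.1 to 32.8 CPM in bound and 2.79 to 4.66 CPM in unbound RNA (2.79 ± 0.11). The B-cell markers Cd79a and Ms4a1 were below the filter, with 5 and 8 counts over all bound libraries. Of the 10 most enriched genes, 8 were also enriched more than in the astrocyte line, from 0.43 ± 0.14 for Bahcc1 to 2.2 ± 0.11 for Bcor. Yeats2 was enriched less (-0.56 ± 0.09), and Nefl did not pass (0.29 ± 0.14, adjusted p = 0.0870). Sall1, on the identity list, did not pass this test (0.10 ± 0.09, adjusted p = 0.376), with an enrichment of 1.38 ± 0.06 in the astrocyte line.

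**Figure D3:**
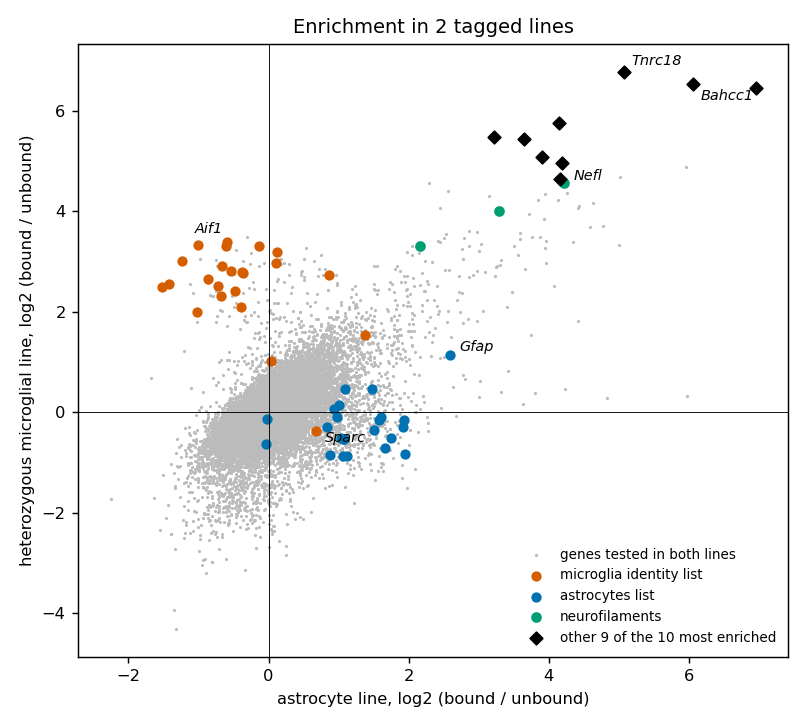
Enrichment in the heterozygous microglial line (vertical axis) against the astrocyte line (horizontal axis), both as log2 of bound over unbound RNA. Each grey point is one of 16490 genes tested in both lines. Microglia identity genes lie mostly high on the left with a median of 2.75 against -0.53, all 10 most enriched genes, Nefl drawn among the neurofilaments, lie high in both lines, and the astrocyte list lies mostly below 0 in the microglial and above 0 in the astrocyte line.

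Genes enriched beyond 2-fold here that were tested and not called enriched in the astrocyte line numbered 135. The astrocyte libraries held 10.1 to 28.6 M counts and were fitted without a block. A gene not called there may still be enriched in that line. Spi1 had 0.50 ± 0.24 there and Vav1 0.54 ± 0.27, while 45 of the 135 were called depleted. This set was picked from the values and is described without a test. Its enrichments ran from 1.20 to 3.48 with a median of 2.18, and in 134 of the 135 the bound library was the higher one in each of the 8 pieces. It took 0.172 to 0.343% of all counts in bound libraries and 0.0477 to 0.0675% in unbound libraries. The 260 genes enriched beyond 2-fold in both lines took 8.82 to 11.4% of the counts in bound and 1.23 to 1.36% in unbound libraries.

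Of the 135 genes, 51 stood on one of the gene lists and 84 on none. The following examples from the 84 were chosen after their values were seen. Vav1, an exchange factor that activates Rac, had 3.86 to 7.56 CPM in bound and 0.438 to 0.882 CPM in unbound RNA (3.26 ± 0.13). Ptpn6, the phosphatase Shp1 recruited by inhibitory receptors, reached 3.06 ± 0.11. Ncf1, a subunit of the phagocyte NADPH oxidase, had a median of 16.2 CPM in bound and 2.33 CPM in unbound RNA (3.04 ± 0.09). Unc93b1, which carries nucleic-acid-sensing Toll-like receptors to endosomes, reached 2.96 ± 0.13. Lcp1, an actin-bundling protein of leukocytes, had a median of 39.2 CPM in bound and 9.18 CPM in unbound RNA (2.16 ± 0.08). Adgre1, the macrophage antigen F4/80, rose by 2.31 ± 0.09, Syk, the kinase that acts below Tyrobp, by 1.81 ± 0.12, and Ptgs1, a cyclooxygenase, by 1.93 ± 0.10. The bound and unbound libraries of these 8 genes did not overlap.

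Levels per kilobase of exon allow genes to be ranked against each other. In the set of 135, B2m, the light chain of class I molecules, was the most abundant in bound RNA with 406 ± 143 CPM per kb (SD, n = 8), but it was also at 150 ± 43.2 in unbound RNA. It was followed by Tyrobp with 56.5 ± 12.8, Fcer1g with 50.3 ± 12.2, Ctss with 46.6 ± 13.6 and C1qb with 37.6 ± 9.30 CPM per kb. Neighbours among these 4 differed by less than their SD. Ccnt1, a cyclin of the elongation factor P-TEFb, held 34.3, Lyz2 27.6 ± 7.87, Aif1 21.0 ± 8.51, C1qc 17.9 ± 4.57, Spp1 16.4 ± 8.84 and Cd68 14.4 ± 2.78 CPM per kb, and neighbours from Lyz2 to Cd68 again differed by less than the larger SD of the pair. P2ry12 held 6.59 ± 1.71 CPM per kb.

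**Figure D4:**
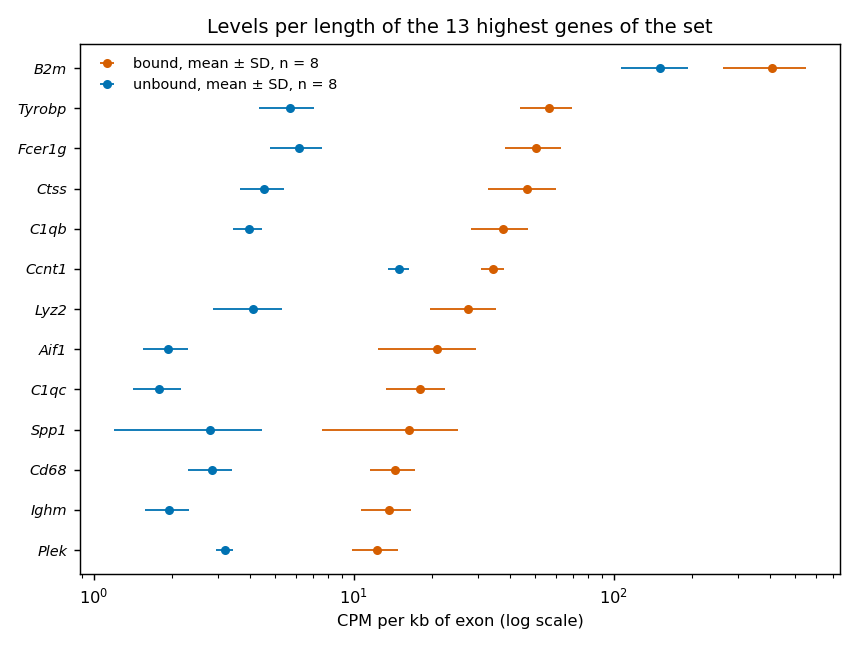
Levels per kilobase of exon of the 13 most abundant of the 135 genes, as mean ± SD of 8 libraries on a log axis. Orange is bound and blue unbound RNA. Tyrobp, Fcer1g, Ctss and C1qb stand at 37.6 to 56.5 CPM per kb in bound RNA, below B2m at 406.

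Upstream sequence was examined for the same set of genes, which holds Spi1. The members were picked by their enrichment, so that they moved together follows from this choice. Whether PU.1 regulates them was not tested. In macrophages PU.1 binds purine-rich sites. The letters GAGGAAGT, on either strand, were searched in the 250 bases before RefSeq gene starts (GRCm38.p6). A gene was counted if any of its starts had them. They were present for 14 of the 108 members of the set with an entry (13%), against 2.73% of the 12296 tested genes with an entry, 2.79% of all 27025 genes with an entry and 0 of 196 genes enriched in both lines. In the microglia identity list they were present for 1 of 17 (5.88%). The composite element for PU.1 with an interferon regulatory factor, which can share its core letters with the first pattern, was present for 6 of the 108 (5.56%) against 2.33% of tested genes, and for 0 of 17 of the identity list. The letters GGGCGGG, to which factors of the Sp family bind, were present for 25.9% of the set, 45.4% of tested genes and 54.1% of the 196. These counts describe letters in a window and do not show binding. Below are 4 upstream windows with GAGGAAGT in capitals, read 5′ to 3′ on the strand of the gene and ending at the base before its start. They were picked from those that overlap no annotated exon, for Spp1 (chr5:104434861-104435110, plus strand), Ptgs1 (chr2:36230176-36230425, plus strand), Vav1 (chr17:57278850-57279099, plus strand) and Havcr2 (chr11:46454681-46454930, plus strand).
Spp1: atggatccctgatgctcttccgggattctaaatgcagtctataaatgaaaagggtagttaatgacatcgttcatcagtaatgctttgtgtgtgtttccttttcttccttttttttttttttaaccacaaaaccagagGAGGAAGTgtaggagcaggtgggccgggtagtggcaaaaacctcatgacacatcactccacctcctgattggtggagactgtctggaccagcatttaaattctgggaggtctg
Ptgs1: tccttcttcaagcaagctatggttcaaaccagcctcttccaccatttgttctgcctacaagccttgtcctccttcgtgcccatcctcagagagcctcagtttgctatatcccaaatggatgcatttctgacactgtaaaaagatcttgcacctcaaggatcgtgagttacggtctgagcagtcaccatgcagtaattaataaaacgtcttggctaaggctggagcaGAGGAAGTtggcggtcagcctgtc
Vav1: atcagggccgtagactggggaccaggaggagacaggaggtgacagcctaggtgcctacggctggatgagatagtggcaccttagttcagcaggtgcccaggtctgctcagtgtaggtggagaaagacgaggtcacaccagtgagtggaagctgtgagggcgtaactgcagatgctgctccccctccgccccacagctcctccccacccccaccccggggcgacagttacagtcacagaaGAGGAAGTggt
Havcr2: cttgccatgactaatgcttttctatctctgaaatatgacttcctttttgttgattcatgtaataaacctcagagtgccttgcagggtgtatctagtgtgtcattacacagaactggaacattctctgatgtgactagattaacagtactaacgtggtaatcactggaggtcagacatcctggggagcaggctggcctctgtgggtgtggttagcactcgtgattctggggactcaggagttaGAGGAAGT
In these windows the match begins 113 bases before the start of Spp1, 24 before that of Ptgs1, 11 before that of Vav1 and 8 before that of Havcr2. Havcr2, an immune checkpoint receptor, was enriched by 2.59 ± 0.14, close to Spp1 at 2.56 ± 0.09.

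Enrichment also varied with the length and base composition of the transcript. In the microglial line the median enrichment rose over quintiles of exon length from -0.36 in the shortest genes, of 57 to 2000 bases, to 0.27 in the longest, of at least 7059 bases. The share enriched beyond 2-fold was 2.79% in the first and 10.5% in the last of these quintiles. In the astrocyte line the same quintiles ran from -0.01 to 0.07. Over quintiles of GC content the median rose from -0.20 to 0.20 in the microglial line and from -0.21 to 0.27 in the astrocyte line. Across 17921 genes the enrichment correlated with log2 exon length at r = 0.304 and with GC content at r = 0.241, which is a description across genes. The 260 genes enriched beyond 2-fold in both lines had a median exon length of 9016 bases and a GC content of 53.5%. The set of 135 genes had 4007 bases and 48.8%, near the 3962 bases and 48.8% of all genes tested. Of the 305 genes depleted beyond 2-fold only 63 were protein-coding, 63 were long noncoding RNAs and 159 were gene models still to be verified, and their median GC content was 40%. The ribosomal protein genes are short, and the part of length in their depletion was not tested.

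**Figure D5:**
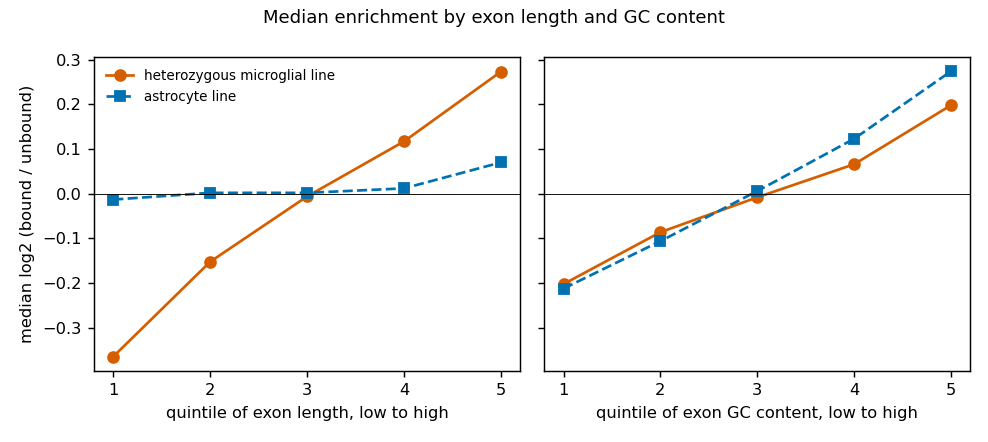
Median enrichment, as log2 of bound over unbound RNA, in 5 equal groups of genes ordered by exon length (left) and by GC content (right). Orange circles are the microglial line and blue squares the astrocyte line. The microglial line rises from -0.36 to 0.27 with exon length and the astrocyte line from -0.01 to 0.07, while both rise with GC content.

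Whether loss of the other Cx3cr1 copy changes the enrichment was tested against the line Cx3cr1CreErt2/CreErt2(Litt) Eef1a1LSL.eGFPL10a/+, which has no intact copy. It has 10 bound and 10 unbound libraries of day 5 barrel cortex. Its RNA is labelled as polyA where that of the heterozygous libraries is labelled as total RNA, and the protocol text names tamoxifen for the heterozygous mice only. Genotype, count table and labelled RNA type cannot be told apart. No gene of 19526 passed edgeR's test in either direction (0.0%). Without adjustment 573 genes were higher and 653 lower at a p under 0.05, and DESeq2 called 5 and 3. For C1qc the difference was 0.28, with a 95% interval from -0.12 to 0.67, for Csf1r 0.20 (-0.09 to 0.48), for P2ry12 0.38 (-0.05 to 0.80) and for Tmem119 -0.06 (-0.55 to 0.44). These intervals leave room for changes of that size. The median of the identity list was 2.64 in the knockout line, against 2.75 with an intact copy. The level of Cx3cr1 itself separated the lines, with 6.49 to 12.4 CPM in heterozygous and 0.335 to 1.25 CPM in knockout bound RNA. Its enrichment in the knockout line was 3.12, and the difference was -0.45 (-0.90 to 0.01).

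The enrichment was also compared between deprived and control pieces. Of 19275 genes tested, 203 (1.05%) were enriched more in deprived pieces and 40 (0.208%) less. This count rested on single pieces. It fell to 1 and 0 without piece 14L and to 12 and 2 without 17R, and it was 0 in both directions when pieces were grouped by side letter, which differs from the title for 17R and 21L (755 and 614 genes without adjustment). DESeq2 called 422 and 243. Mdh1, the cytosolic malate dehydrogenase, had a log2 enrichment of -0.30 to -0.10 in the 4 deprived and -0.74 to -0.57 in the 4 control pieces, and the difference was 0.48 ± 0.07 (adjusted p = 0.0107). The groups did not overlap, but this is not separate evidence, because the gene was named by its small p in this same test. In mice 14 and 15 the deprived piece was the higher one. Meg3, an imprinted noncoding RNA, had -1.67 to -1.35 in deprived and -1.11 to -0.95 in control pieces, a difference of -0.46 ± 0.08 (adjusted p = 0.0119). The other genes named for this comparison by smallest p were Ldhb (0.54), Snx2 (0.63), Magee1 (0.50) and Enpp2 (0.59), which were higher, and Xist (-0.66), Onecut2 (-0.61), Vangl2 (-0.46) and Jcad (-0.43), which were lower. Xist was near 0 in both pieces of the male mouse 15 (at most 0.151 CPM), so its difference rests on the females, of which only mouse 14 holds both conditions. None of these stands among the 135 genes.

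Of the identity list, Aif1 passed the test with a difference of 0.66 ± 0.14 (adjusted p = 0.0275). The others did not, among them C1qc at 0.09 (95% interval -0.23 to 0.41), Csf1r at 0.20 (-0.06 to 0.46), P2ry12 at 0.03 (-0.36 to 0.41) and Tmem119 at -0.03 (-0.67 to 0.60). The median difference of the list was 0.23, against 0.02 for all genes. The median enrichment of the list was 2.73 to 3.06 in the 4 deprived and 2.36 to 3.00 in the 4 control pieces, which overlap, and within mouse 15 it was lower in the deprived piece (2.73 against 3.00). Summed levels of the list, Sparc included, in bound RNA were 580 to 661 CPM in the 4 deprived pieces and 352 to 493 CPM in the 4 control pieces. They did not overlap. In unbound RNA they were 140 to 160 CPM and 106 to 147 CPM and did overlap. Without Sparc the sums were 520 to 608 CPM in deprived and 314 to 452 CPM in control pieces in bound RNA, and 72.4 to 82.3 CPM and 61.0 to 79.4 CPM in unbound RNA. Other lists separated as well, in either direction, and the lists not named in this paragraph overlapped. How often single genes separate by condition was not counted. Complement genes summed to 221 to 246 CPM in bound RNA of deprived and 146 to 183 CPM of control pieces. Sensors summed to 213 to 254 CPM and 126 to 183 CPM, and lysosomal genes to 1029 to 1197 CPM and 702 to 1007 CPM. Activated-microglia genes summed to 943 to 1010 CPM and 730 to 878 CPM. Border macrophage markers summed to 110 to 135 CPM in bound RNA of deprived and 43.9 to 85.4 CPM of control pieces, and antigen-presentation genes to 481 to 730 CPM and 275 to 372 CPM. The list of untagged astrocytes was also higher in deprived pieces, at 1065 to 1161 CPM against 954 to 1014 CPM. Lower in deprived pieces were the list of myeloid factors, which holds Mef2c (2723 to 3211 CPM against 3824 to 4453 CPM), and the Wnt list (1039 to 1179 CPM against 1190 to 1360 CPM). The oligodendrocyte-lineage list was lower too, at 217 to 238 CPM against 244 to 266 CPM. Within mouse 14 the bound sums of the identity list were 583 CPM in 14L and 491 CPM in 14R. Within mouse 15 they were 580 CPM in 15L and 493 CPM in 15R. The lowest sums of that list, 352 and 398 CPM, were the pieces of mouse 21, which was only a control. The bound level of GFPgene was likewise lowest in 21L and 21R, at 4.55 and 4.82 CPM, and at 5.29 to 8.52 CPM in the other pieces. The part of the GFPgene level and of border macrophages in these sums was not tested.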

How the data were processed

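Bound and unbound RNA of 8 pieces was analysed from raw read counts per gene, which the authors deposited. Per the submitters' processing notes, reads were handled with HISAT2 2.2.0 and featureCounts 2.0.0 on GRCm38 (also written mm10), and Trim Galore 0.6.4, FastQC 0.11.9 and cutadapt 2.9 are named too. Strand and other settings are not given in the sources used here, so overlapping genes may share reads. Per the labels' protocols, cDNA was made with the Ovation V2 kit and libraries with Nextera XT.

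Counts were fitted with edgeR 4.0.16 in R 4.3.3 (TMM, filterByExpr by fraction, quasi-likelihood F test, glmTreat for 2-fold, two-sided, Benjamini-Hochberg over all genes tested, threshold 0.05), with the piece as a block. Log2 CPM used a prior count of 2. Fractions of a piece share 1 lysate, and deviations from group means correlated best with the same piece in 8 of 8 pieces (r = 0.277 to 0.491), which with the library names is the pairing used. Line differences were interaction terms over genes in both tables. DESeq2 1.42.0 and limma 3.58.1 were alternatives. Positions, lengths and GC content came from GENCODE vM21, matched by gene ID for 17921 of 17933 genes. Scripts were tested on simulated data. Pieces of a mouse are not independent animals, and mouse sums were tried as an alternative.

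Members and gene lists were chosen with earlier results of these data known. Named genes were the markers and GFPgene, and the 10 most enriched and 10 most depleted beyond 2-fold with a mean log2 CPM of at least 3. The 10 of largest difference to the astrocyte line were named too. So were 4 of each list by smallest p with up to 2 against its majority, and up to 5 per direction for deprivation and genotype. Other list members named in the text were chosen after their values were seen.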

Additional observations from a re-analysis of the deposited data

Results flagged for a closer look

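In 9 of 158 groups of 8 pieces checked, 1 piece lay far from the other 7, and chance gives about 1 in 20. The log2 enrichment of Nefl was highest in 15R at 5.20, against 4.25 to 4.62 in the others. That of Cenpe was lowest in 21R at 2.60 (others 2.91 to 3.15). Piece 21L was lowest for Cd68 at 1.51 (others 2.09 to 2.61) and for Psmb9 at 1.44 (others 1.86 to 2.2). Piece 15R was lowest for Lyve1 at 0.167 (others 1.38 to 2.31) and highest for Col3a1 at 2.40 (others 0.718 to 1.11), and both genes had their lowest bound levels there. Wnt5a was lowest in 15L at 0.472 (others 0.843 to 1.02) and S100a8 in 14R at -2.64 (others -0.896 to -0.04). The median of the engulfment list was highest in 17L at 1.22 (others 0.679 to 0.897).

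Enrichment differed between deprived and control pieces in edgeR's interaction test for the 10 genes named for that comparison, which were picked by this same test. The log2 difference was 0.54 for Ldhb, 0.479 for Mdh1, 0.502 for Magee1, 0.628 for Snx2 and 0.594 for Enpp2. It was -0.658 for Xist, -0.461 for Meg3, -0.426 for Jcad, -0.607 for Onecut2 and -0.464 for Vangl2.

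Enrichment was higher than in the astrocyte line for the 10 genes named for that comparison, which were likewise picked by the test itself. The log2 difference was 4.30 for Ctss, 4.18 for Ly86, 3.96 for Aif1, 3.84 for C1qc, 3.63 for C1qb, 3.58 for Spp1, 3.37 for Tyrobp, 3.31 for Fcer1g, 3.28 for Csf1r and 3.26 for Ighm.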

How the results depend on the processing

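Counts of enriched genes stayed within 1.5 times under every alternative run. Depleted genes numbered 3767 with scaling by total counts. Depletion beyond 2-fold, 305 genes, fell to 185 with total counts, 190 with DESeq2, 182 with limma-voom and 165 in control pieces alone. Without the replicate block, so without pairing by piece, 5569 genes were enriched and 5453 depleted. Leaving out 1 piece at a time gave 5875 to 6117 enriched and 5738 to 5927 depleted genes.

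For the deprivation difference DESeq2 called 422 higher and 243 lower, and grouping by side letter 0 and 0. Leaving out 1 piece gave 1 (without 14L) to 355 (without 21L) higher and 0 to 92 lower, with 67 and 15 without 14R, 37 and 6 without 15L, 95 and 23 without 15R, 96 and 19 without 17L, 12 and 2 without 17R, and 71 and 13 without 21R. For the knockout difference DESeq2 called 5 and 3, and leaving out 1 piece gave 0 to 1 in each direction. The causes were not tested.

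Changes of sign occurred in 3 named genes, none called in either direction over all pieces. The enrichment of Snx2 was -0.20 and that of Magee1 -0.15 in control pieces alone. That of Xist was -0.31 in deprived pieces alone and ran from -0.072 to 0.102 when 1 piece was left out. Depth of 32.8 to 50.7 M counts limits genes near the filter, such as Il1b and C3.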
